A study of Mus musculus with 3 samples.

Results

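The Egr, Fos and Jun genes were described in J1 mouse embryonic stem cells (mESCs) kept under a MEK inhibitor. They are Egr1, Egr2 and Egr3, Fos, Fosb, Fosl1 and Fosl2, and Jun, Junb and Jund. Members were chosen by name: every probe that was not a control and whose accession maps to one of these symbols was taken, which gave 11 probes for all 10 genes, of 20660 genes named on the array. The rule uses no measured value, although the genes were picked with earlier results of these data known. On all 3 arrays, 7 of the 10 genes (70%) were measured well above background, against 15026 of all named genes (72.7%), so the share was close to that of the array as a whole. Counted by probe, 7 of 11 passed, against 60.3% of all probes. Egr1, Fos, Fosb, Fosl2, Jun, Junb and Jund were detected on every array, Fosl1 on 2 arrays, and Egr2 and Egr3 on none.

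J1 is an mESC line of the strain 129S4/SvJae, for which the labels name the inner cell mass as tissue. The 3 samples were total RNA of J1 mESCs given 1 µM PD0325901 (PD) for 24 h, on gelatin without feeder cells and in medium with leukemia inhibitory factor at 1000 U/mL. They were independent experiments with 1 cell line and formed 1 group, and each was hybridised with Cy3 to its own array. Cells without PD were not analysed here, so the values describe PD-treated cells and give no effect of PD. In bulk RNA, fewer cells expressing a gene and less RNA per cell cannot be told apart.

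The Egr, Fos and Jun families hold the classical immediate early genes, such as Egr1 and Fos, which are transcribed within minutes of a growth factor signal without new protein synthesis. In that pathway MEK phosphorylates ERK, ERK phosphorylates ternary complex factors such as Elk1, and these act with serum response factor at CArG boxes of the Egr and Fos promoters. The Egr proteins are zinc finger factors that bind GC-rich sites, whereas Fos and Jun proteins pair through leucine zippers to form AP-1. In mESCs, ERK signaling downstream of Fgf4 favours exit from self-renewal, and PD blocks it at MEK.

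Promoter windows that held a searched motif are shown first, because the motifs are those through which the pathway and the members themselves act on such genes. Egr2 windows that overlap a printed one are left out. The windows are RefSeq sequences of build GRCm38.p6, from 250 bases before to 50 bases after a start of transcription, 5′ to 3′ on the strand of the gene, with the matched motif in capitals. The Egr2 windows carry a CArG box, and the Fosb and Fosl2 windows carry an EGR site.
Egr2, chr10:67537316-67537615, plus strand: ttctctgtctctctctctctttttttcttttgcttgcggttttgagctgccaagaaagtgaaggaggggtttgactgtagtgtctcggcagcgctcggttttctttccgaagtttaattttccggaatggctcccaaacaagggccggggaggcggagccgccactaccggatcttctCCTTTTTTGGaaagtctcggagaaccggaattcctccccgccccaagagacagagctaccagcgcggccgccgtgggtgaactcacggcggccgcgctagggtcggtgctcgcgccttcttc
Egr2, chr10:67537619-67537918, plus strand: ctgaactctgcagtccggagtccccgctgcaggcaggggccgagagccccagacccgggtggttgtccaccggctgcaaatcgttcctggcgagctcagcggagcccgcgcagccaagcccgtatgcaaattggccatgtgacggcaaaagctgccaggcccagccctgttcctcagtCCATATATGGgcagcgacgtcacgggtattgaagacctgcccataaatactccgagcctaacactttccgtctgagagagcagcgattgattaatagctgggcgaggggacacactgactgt
Fosb, chr7:19309996-19310295, minus strand: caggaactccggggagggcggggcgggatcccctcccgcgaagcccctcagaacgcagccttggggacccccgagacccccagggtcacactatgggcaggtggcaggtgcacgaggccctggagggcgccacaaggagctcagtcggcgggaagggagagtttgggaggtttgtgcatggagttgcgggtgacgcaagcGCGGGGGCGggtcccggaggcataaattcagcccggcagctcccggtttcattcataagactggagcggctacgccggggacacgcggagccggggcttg
Fosl2, chr5:32136222-32136521, plus strand: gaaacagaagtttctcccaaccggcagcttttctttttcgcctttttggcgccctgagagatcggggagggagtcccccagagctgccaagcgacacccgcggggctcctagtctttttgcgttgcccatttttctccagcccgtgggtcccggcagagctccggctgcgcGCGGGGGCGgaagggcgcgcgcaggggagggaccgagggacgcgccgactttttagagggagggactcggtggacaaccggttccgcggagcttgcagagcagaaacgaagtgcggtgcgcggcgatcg

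Reported are 11 windows for 7 of the genes, 5 of them for Egr2 and 1 each for Fos, Fosb, Fosl2, Jun, Junb and Jund. Windows of Egr1, Egr3 and Fosl1 are not reported here, so the matches say nothing on those genes. Both strands were searched for the CArG box, the cAMP response element TGACGTCA, the AP-1 site TGANTCA and the EGR site GCGNGGGCG. A CArG box stood in 4 of the 5 Egr2 windows, 3 of which overlap and share the same box, and in none of the other 6 windows. Of all 32851 promoters 1.63% hold one. In both printed Egr2 windows the box lay at bases -72 to -63 from the start. The EGR site lay at -50 to -42 in Fosb and at -79 to -71 in Fosl2, and 5.55% of all promoters hold it. None of the 11 windows held the cAMP response element, against 1.79% of all promoters, or the AP-1 site, against 7.81%. A match is only a match of letters in this window, and the absence of one says nothing on the factor.

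**Figure D1:**
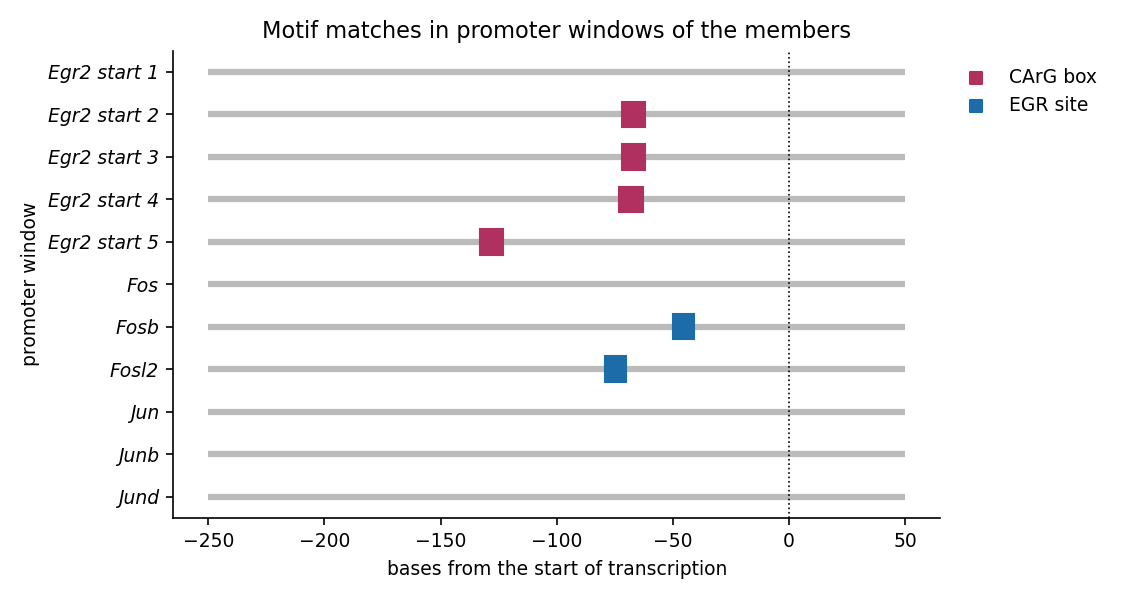
Positions of motif matches in the 11 promoter windows, in bases from the start of transcription (dotted line), with 1 grey bar per window from 250 bases before to 50 after the start. CArG boxes appear in 4 of the 5 Egr2 windows and an EGR site in Fosb and in Fosl2, while the windows of Fos, Jun, Junb and Jund hold no match.

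The values are processed signals, that is, spot intensities after the scanner software had subtracted the background. Detection on an array means that the software marked 50% or more of a probe's spots as well above background. The dimmest spots so marked had signals of 10.1, 11.4 and 10.3 on replicates 1, 2 and 3, here called the detection limit. It is the lowest such spot of an array, so a brighter spot can still be unmarked. The level of a probe is its log2 signal minus the 75th percentile of its array, which corresponded to signals of 551, 511 and 527, respectively, so a level of 0 is the 75th percentile. Probe sequence affects brightness, so levels of different genes were not compared. Replicate 2 stood apart: it had 187 spots marked non-uniform against 25 on replicate 1 and 8 on replicate 3, and 6 of 48 blocks of its array held at least 10 of them (marked blocks). Its negative control spots also had a 99th percentile of 61.2, against 16.7 and 14.5 on the other arrays. Detection does not use this limit, so any gene counted as detected can lie under it on replicate 2.

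Of the Egr genes, Egr1 was detected and Egr2 and Egr3 were not. Egr1, a zinc finger factor that is among the first genes induced by ERK, had a signal of 45.4 on replicate 1, 38.0 on replicate 2 and 37.5 on replicate 3, a mean of 40.3 ± 4.45 (SD, n = 3). Its level was -3.72 ± 0.11 (SD, n = 3). It was thus highest on replicate 1, with the other arrays side by side, and the highest and lowest levels were 1.16-fold apart. Each signal was at least 3.32 times the detection limit of its array. On replicate 2, however, it was only 0.620 times the 99th percentile of the negative controls, whereas it was 2.72 and 2.59 times that limit on replicates 1 and 3.

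Egr2, known for its role in hindbrain segmentation and in Schwann cells, gave 2.52, 2.81 and 2.64, at most 0.257 times the detection limit of each array. After background subtraction its values were -4.32, 1.94 and -2.02, and the software replaces values near 0 with small positive signals. Egr3, which is induced with Egr1 in lymphocytes and needed for muscle spindles, gave 6.06 on replicate 1, 2.99 on replicate 2 and 2.78 on replicate 3. The first was higher than the others, and its spot was positive and significant there but not well above background on any array. Neither gene has a level that could be read from these arrays.

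Of the 4 Fos genes, 3 were detected on all arrays and Fosl1 on 2. Fos, the founding partner of Jun in AP-1, had a signal of 101 on replicate 1, 93.4 on replicate 2 and 102 on replicate 3 as geometric means over its spots. The mean was 98.5 ± 4.46 (SD, n = 3) and the level -2.43 ± 0.04 (SD, n = 3), the smallest SD among the detected members. After scaling, the highest and lowest arrays were 1.06-fold apart. The Fos SD is one of means over as many as 10 spots per array, whereas every other member probe had 1 spot. The part of this in the small SD was not tested. The Fos SD was no longer the smallest after median scaling (0.087, against 0.079 for Jund), after normexp correction or with outlier spots kept. It stayed the smallest in the other ways of processing all 3 arrays.

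Fos was also the only member spotted 10 times per array, so each sample had an error of its own. The spots ran from 92.7 to 112 with a median of 99.9 on replicate 1, from 72.2 to 109 with a median of 91.4 on replicate 2, and from 86.9 to 118 with a median of 99.4 on replicate 3. The last range covers 9 spots, because the software had marked one spot of replicate 3, at 167, as an outlier. The ranges of the 3 arrays overlapped, and the coefficient of variation between spots was 6.24%, 11.0% and 9.34%, respectively. By limma's moderated F test over the 284 detected probes with 10 spots, Fos was not called (adjusted p = 0.454), whereas 115 probes were (40.5%). The difference in level was 0.00 (95% interval -0.12 to 0.12) for replicate 2 minus 1, 0.08 (-0.04 to 0.20) for 3 minus 1 and 0.08 (-0.04 to 0.20) for 3 minus 2. With the median of each array in place of the 75th percentile, Fos was called (adjusted p = 0.0433), as were 150 of the 284 probes (52.8%). Of the Fos spots, 3 of 10 lie in the marked blocks. The test concerns these hybridised samples and not a condition.

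**Figure D2:**
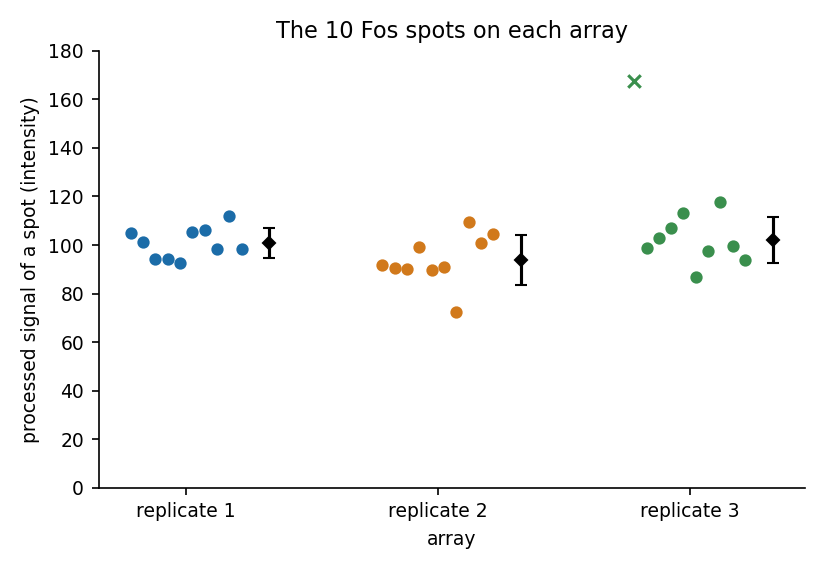
Processed signal of each Fos spot on the 3 arrays. Dots are spots used, the cross is the spot left out as an outlier, and the black diamond with bars is the mean ± SD of the spots used. The spots of replicates 1, 2 and 3 overlap, and the lowest used spot, at 72.2, is on replicate 2.

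Fosb, a Fos relative that also gives a short form without its C-terminal part, had signals of 72.5, 72.9 and 76.8, a mean of 74.1 ± 2.39 (SD, n = 3). Its level was -2.84 ± 0.08 (SD, n = 3), and no array stood out. Fosl1, the Fos-related antigen that AP-1 itself induces when ERK stays active, gave 17.6, 15.9 and 11.2, of which the value of replicate 3 was not well above background. Its 3 values lie within 1.09 to 1.74 times the detection limit of their arrays, so its level of -5.18 ± 0.33 (SD, n = 3) is at the edge of what could be measured.

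Fosl2, the other Fos-related antigen, had 2 probes, which disagreed. One gave 65.2 on replicate 1, 66.2 on replicate 2 and 55.7 on replicate 3, was detected on all arrays and had a level of -3.09 ± 0.15 (SD, n = 3). The other, matched to the same transcript, gave 2.79, 7.71 and 5.25 and was well above background on none. Fosl2 therefore counts as detected by its brighter probe only.

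All 3 Jun genes were detected on all arrays. Jun, the AP-1 subunit whose activation domain is phosphorylated by JNK, had a signal of 1071 on replicate 1, 805 on replicate 2 and 1125 on replicate 3, a mean of 1000 ± 172 (SD, n = 3). Its level was 0.90 ± 0.23 (SD, n = 3), above the 75th percentile of every array. Replicate 2 was the low one and the other arrays lay close together. The levels of replicates 3 and 2 were 1.36-fold apart, and their signals differed by 2.32 times the combined error that the scanner software gave for the 2 spots. Replicates 3 and 1 differed by 0.353 such errors. This SD was the largest among the detected members: of 2945 probes within 0.5 log2 units of Jun's level the median SD was 0.067, and 4.11% had an SD at least as large. For the other detected members this share ran from 33.6% for Jund to 88.7% for Fos, which alone among them was averaged over 10 spots. The share of Jun is that of the most variable member and is not a test. In each of 7 other ways of processing replicate 2 remained lowest and replicate 3 highest, 1.35- to 1.44-fold apart. These ways reuse the same spot on each array and are not separate measurements. The single Jun spot lies outside the marked blocks, so leaving those out did not change its levels. With 1 spot per array the difference was not tested.

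Junb, a Jun relative that restrains Jun in many settings, had signals of 33.7, 34.7 and 35.0, a mean of 34.5 ± 0.713 (SD, n = 3) and a level of -3.94 ± 0.08 (SD, n = 3). The 3 values lay together. On replicate 2 the signal was 0.568 times the 99th percentile of the negative controls and so, like that of Egr1, below this limit, while on replicates 1 and 3 it was 2.02 and 2.42 times the limit. Of the 16 negative control spots well above background on replicate 2, 9 lay in the marked blocks, which held 40 of the 308 such spots. Outside these blocks the 99th percentile on replicate 2 was 33.9, and both Egr1 and Junb were above it there.

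Jund, which is transcribed in resting cells and responds less to growth factors than its relatives, gave 12343 on replicate 1, 12620 on replicate 2 and 12766 on replicate 3. The mean was 12576 ± 215 (SD, n = 3) and the level 4.57 ± 0.07 (SD, n = 3). The arrays did not differ by more than 0.238 times the error of the scanner. Its single spot lies in one of the marked blocks, and the part of that in its values was not tested. Replicate 2 lay between the others in signal and was highest in level.

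**Figure D3:**
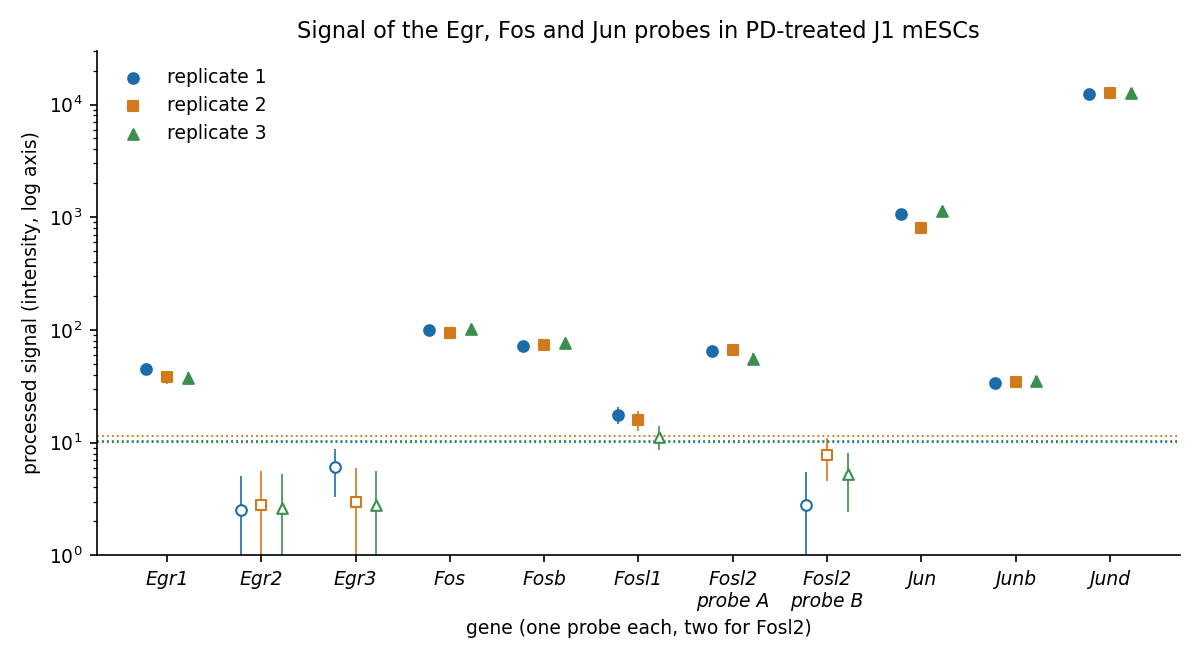
Processed signal of the 11 probes on each array, on a log axis. Filled symbols are values well above background, open symbols are not, bars are the error given by the scanner software (those that reach the lower axis extend below it), and dotted lines mark the detection limit of each array. Egr2, Egr3 and probe B of Fosl2 lie under these lines, Fosl1 lies at them, and Jund stands at 12343 to 12766.

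Among themselves, the 7 detected probes varied little. Their median SD was 0.080 log2 units, with a range from 0.045 for Fos to 0.23 for Jun, against a median of 0.090 over all detected probes. No detected member probe differed by more than 1 log2 unit between arrays, as 1.85% of all detected probes did. Egr1 was highest on replicate 1, Fosl2, Junb and Jund on replicate 2 (41.4% of all detected probes), and Fos, Fosb and Jun on replicate 3. Replicate 2 was lowest for Fos and Jun (31.2% of all detected probes). For Fos this was nearly a tie, with a level of -2.45 on both replicates 1 and 2. Replicate 2 stayed lowest for Fos in 5 of 7 other ways of processing. Which array was highest depended on the scaling: with the median of each array as the scale, 5 of the 7 were highest on replicate 3 and 1 each on replicates 1 and 2, and quantile normalization and the deposited table each put 4 on replicate 3. For Egr1, Fos, Fosb and Junb the SD was below the median of probes of like level, which was 0.17, 0.11, 0.13 and 0.18, and for Fosl2, Jun and Jund it was above it. Of these, only Fos was averaged over 10 spots.

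**Figure D4:**
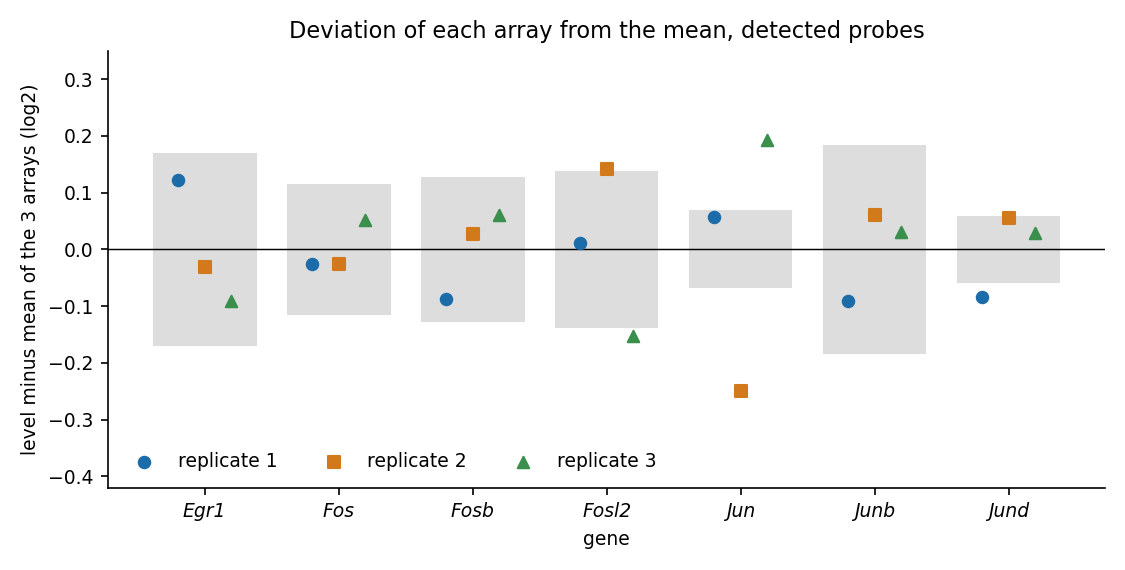
Level of each detected member on each array minus its mean over the 3 arrays, in log2 units. Grey boxes span the median SD of detected probes within 0.5 log2 units of the same level, on both sides of 0. Jun leaves its box most clearly, with replicate 2 low and replicate 3 high.

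Most genes that act with the members were detected, beside 72.7% of all named genes. Egr4, the remaining Egr gene, had signals of 54.6, 54.1 and 56.3 on replicates 1, 2 and 3, with little spread. The corepressors that bind Egr proteins were present too: Nab1 gave 432, 379 and 437, and Nab2 gave 931, 942 and 937 by 1 of its 2 probes. All 6 genes for serum response factor and its partners were detected. Srf had 1575, 1505 and 1481 by its brighter probe. By their brightest probes, its coactivators Mrtfa and Mrtfb averaged 3130 ± 64.0 (SD, n = 3) and 2833 ± 13.6 (SD, n = 3). The other Mrtfa probe had a level of -0.05, against 2.56. The other Mrtfb probes had levels of -4.90 and -5.54, against 2.42, and the dimmest was detected on 1 array only. No single level can thus be given for Mrtfb. Of the ternary complex factors, Elk3 averaged 878 ± 43.0 (SD, n = 3) by the brightest of its 3 probes. The other Elk3 probes had levels of 0.18 and -1.94, against 0.73. The 3 Elk4 probes disagreed. The brightest, with 759, 616 and 774 and a level of 0.43, was lowest on replicate 2. The others had levels of -3.83 and -3.69 and were lowest on replicates 3 and 1, respectively. The Elk1 probes disagreed, with levels of 9.19 ± 0.01 and -3.07 ± 0.15 (SD, n = 3), so no single level can be given for Elk1.

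Of 13 other AP-1 and ATF factors, 12 were detected (92.3%, against 72.7% of all named genes), with a median SD of 0.086. Maf, a factor of differentiated lineages, was not, with a mean signal of 2.79. The largest SDs were those of Atf3, a stress-induced repressor (195, 208 and 226), Jdp2, a Jun dimerization partner (736, 801 and 796), and Batf (52.4, 56.7 and 57.2). In each of these replicate 1 was lowest.

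Of 20 other immediate early genes, 19 were detected (95%, against 72.7% of all named genes), with a median SD of 0.087. The nuclear receptor Nr4a3 was not (mean signal 2.63). Ier3, an ERK-linked survival gene, spread most, with 1072 on replicate 1, 654 on replicate 2 and 1222 on replicate 3. Its SD was 0.44 log2 units, and replicate 2 was low as for Jun. Ier5, by 1 of its 2 probes, was also low on replicate 2, with 67.0, 53.3 and 78.7, while Zfp36, which destabilises AU-rich mRNAs, was high there, with 33.8, 41.6 and 24.9. The Ier3 spot lies in a marked block, and the part of that in its value was not tested; those of Ier5 and Zfp36 lie outside.

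All 14 kinases that act on Fos and Jun proteins or their promoters were detected, against 72.7% of all named genes, with a median SD of 0.048. Mapk8, which encodes a JNK that phosphorylates Jun, had the largest SD (0.36), with 138 on replicate 1, 112 on replicate 2 and 188 on replicate 3. Its other probes were steadier, with SDs of 0.16 and 0.13, and only one of them was lowest on replicate 2. Mapk10, detected by 1 of its 2 probes, and the ERK-activated kinase gene Rps6ka3 followed with SDs of 0.096 and 0.089. The array measures RNA only, and kinase activity was not part of the data.

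**Figure D5:**
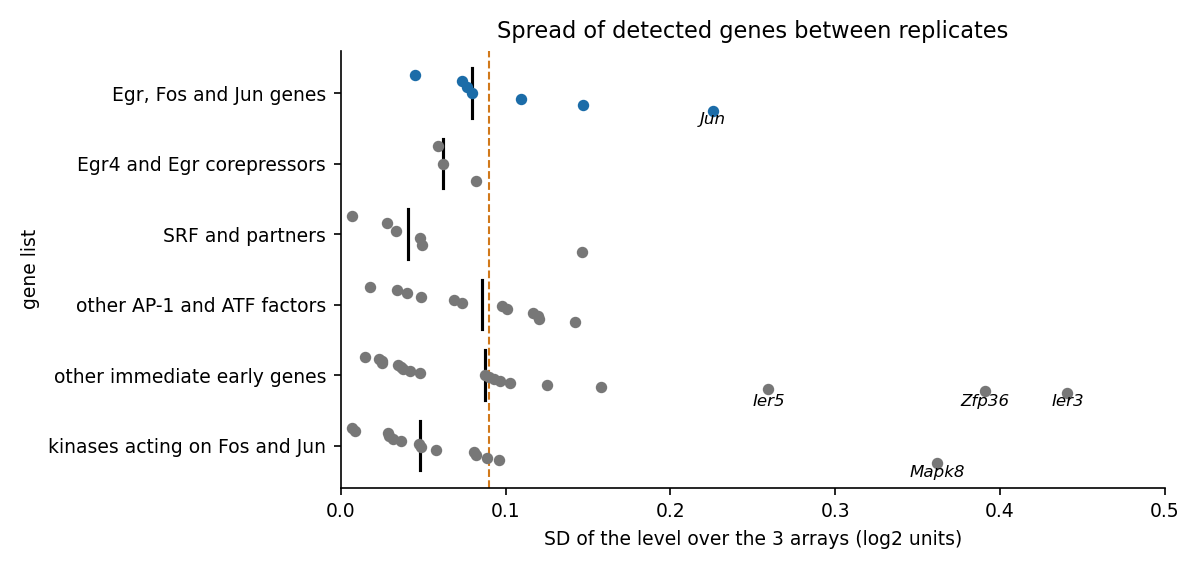
SD of the level over the 3 arrays, in log2 units, for each detected gene of the members (blue) and of 5 lists of related genes (grey). Black lines are medians of a list and the dashed line is the median of all detected probes, 0.090. Most genes lie near or below the dashed line, and Jun, Ier5, Zfp36, Ier3 and Mapk8 lie above 0.2.

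Markers of embryonic stem cells, fibroblasts and primitive endoderm were looked up, and of all named genes 72.7% were detected. Detection could not settle the cell type, because all embryonic stem cell and all primitive endoderm markers were detected. All 8 embryonic stem cell markers were detected, with a summed signal of 294645 to 317337. Most of that sum came from 1 probe, that of Dppa5a (189708 to 206458), which is named after its values were seen, and sums of different lists cannot be compared. Of these Pou5f1 spread most and was high on replicate 2 (11265, 16872 and 10239), Sox2 was low there (6453, 4835 and 6827), and Esrrb had an SD of 0.10. Of 8 fibroblast markers, Col1a1, Col1a2, Thy1 and Dcn were detected, Col3a1 only on 1 array, and Col5a2, Lum and Postn on none. On replicate 2 Dcn, at 21.3, was below the 99th percentile of the negative controls, with the marked blocks (61.2) and without them (33.9). Their summed signal was 1253 to 1376. Among the detected ones the SD was largest for Col1a2 (0.23), Dcn (0.15) and Thy1 (0.086), and Col1a2, whose spot lies in a marked block, was lowest on replicate 2 (489, 345 and 464). All 6 primitive endoderm markers, Gata6, Gata4, Sox17, Sox7, Dab2 and Pdgfra, were detected with a summed signal of 491 to 511, and Dab2 was highest on replicate 2 (62.4, 89.5 and 61.5). Their part in the values of the Egr, Fos and Jun genes was not tested.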

How the data were processed

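Total RNA of 3 PD-treated J1 mESC samples was measured on 1-colour Agilent arrays, which the file headers place on 1 slide and in 1 scan, so no batch could be compared. Per the file headers and labels, the authors made spot intensities with Agilent Feature Extraction 10.7.3.1, which subtracts background, removes spatial trends and replaces the lowest values. These intensities were not normalized between arrays. The authors also deposited a log2 table, whose normalization is not given in the sources used here, and it served only as an alternative. The grid refers to mm9, so positions are given only for RefSeq promoters. No spot was saturated, and the number of arrays limits the precision.

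Probes were named by accession through the RefSeq table of GRCm38.p6 (27235 of 55681 probes). Log2 processed signals were averaged over spots without outlier flags and scaled to the 75th percentile of each array. For genes with several probes, the one of highest mean level stood for the gene. Over 33560 detected probes, 33474 kept an unflagged spot on each array and entered the counts of spread. Scaling left the medians of the arrays at most 0.090 log2 units apart. Probes with 10 spots were tested with limma 3.58.1 in R 4.3.3 (moderated F test, Benjamini-Hochberg adjustment at 0.05), which was tested on simulated data first. Other steps used Python 3.11.15.

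The members and the 8 gene lists were chosen with earlier results of these data known, and 1 gene of the lists is not reported here. Named are all members, every gene of lists of at most 7 genes, and of longer lists the genes not detected on all arrays and those 3 with the largest SD among the detected. Alternatives were other scalings, quantile normalization, normexp correction with an offset of 50, other detection and probe rules, outlier spots kept, marked blocks left out, values from the deposited table, and 1 replicate left out at a time.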

Additional observations from a re-analysis of the deposited data

How the results depend on the processing

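The count of detected genes, 7, was 5 to 8 under other rules for detection and 7 to 8 when a replicate was left out. It was 5 when a signal had to exceed the 99th percentile of the negative controls, which Egr1 and Junb missed on replicate 2, and 7 when the control spots of the marked blocks were left out of that limit, a choice made after seeing the data. The median SD stayed between 0.042 and 0.13 over all alternatives. Without a filter on dim probes 2 member probes, those of Egr3 and the dim Fosl2 probe, differed by more than 1 log2 unit, against 0, and 5 were highest on replicate 2, against 3. After median scaling 1 detected probe was highest on replicate 2 and 5 of 7 on replicate 3, against 3, and the Fos spots differed between arrays by limma's F test (adjusted p = 0.0433, with 52.8% of the tested probes called), against 0.454 with the 75th percentile. Leaving out a replicate gave adjusted p = 0.370 to 0.995, and keeping the outlier spot, a choice made after seeing the data, 0.229. The levels of members moved by more than 1 SD in 30 of 109 cases: for all 10 genes under median scaling and scaling to detected probes, where the mean level of every probe shifts by the same amount because the zero is another one, for 9 after normexp correction and for 1 when all probes of a gene were averaged. Jund could not be given with the marked blocks left out. No paired analysis was possible because the labels give 1 group only. Signals near 10 could not be told from background. The negative controls reached higher, with 99th percentiles of 16.7, 61.2 and 14.5 on replicates 1, 2 and 3.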
